A study of Mus musculus with 18 samples.

Results

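Gm15551 is a long noncoding RNA gene that lies in antisense orientation inside Camk2d, and Camk2d, Camk2g, Camk2b and Camk2a encode the 4 forms (delta, gamma, beta and alpha) of calcium/calmodulin-dependent protein kinase II. These 5 genes were selected by name from the 54347 rows of the expression table, 31886 of which carried a gene symbol, and all 5 passed the filter on low counts that left 18728 genes. Polyadenylated RNA had been sequenced from 1 brown and 2 white fat depots, the interscapular (iBAT), the inguinal (iWAT) and the epididymal one (eWAT). These came from wild type (wt) and knockout (ko, ΔGm15551) mice of 12 weeks on the C57BL/6N background, in 6 groups of 3 libraries. The library titles give tissue, genotype and a number, and same-numbered libraries of a genotype were taken as 1 mouse. On this reading, 3 wild type and 3 knockout mice each gave 1 library per tissue. The knockout line was made with CRISPR/Cas9 and carries 1 deletion that includes exon 1 of Gm15551. It was not restricted to a cell type, so every tissue of the animal carried the deletion, and the wild type mice differed from the knockout mice by this allele as far as the labels state. The mice of this experiment were on a chow diet. Total estimated counts ranged from 14997901 to 34389586 per library, and expression is given as CPM, the counts scaled to a common library total after TMM correction. P-values over these libraries measure the spread between the libraries of a group. Apart from fits with the mouse as a block, libraries entered the models as independent. Genotype contrasts across tissues thus count the 3 libraries of a mouse as separate. Their p-values and intervals do not measure the spread between mice alone and can be too small.

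Calcium/calmodulin-dependent protein kinase II is a serine/threonine kinase that assembles into large holoenzymes of its subunits. Calcium-loaded calmodulin opens the autoinhibited kinase, and phosphorylation between neighbouring subunits then keeps it partly active after calcium has fallen. The alpha and beta forms are best known from neurons, whereas delta and gamma are made in many tissues and delta is the main form of the heart. Long noncoding RNAs that overlap a coding gene are often examined for an effect on that gene, which makes Camk2d the first gene to inspect when Gm15551 is removed.

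The minus strand holds Gm15551 (ENSMUSG00000086679.2) at chr3:126667329-126669044 (GRCm38, GENCODE M21), and the plus strand Camk2d (ENSMUSG00000053819.16) at chr3:126596302-126846326. The 2 exons of Gm15551, of 200 and 335 bases, lie within the second intron of Camk2d, which is 85499 bp long, and overlap 0 exons of Camk2d. The nearest Camk2d exon is 15616 bp away. The 535-base transcript is shown here in its first exon, which the deletion removes, and in the first 200 bases of its second exon, which hold the 2 sites that the study's LNA oligonucleotides (LNA2, then LNA1) bind, in capitals. Positions in the transcript are counted from its annotated 5′ end, and LNA2 pairs with bases 241 to 256 and LNA1 with bases 347 to 362.
Gm15551 exon 1, chr3:126668845-126669044, minus strand: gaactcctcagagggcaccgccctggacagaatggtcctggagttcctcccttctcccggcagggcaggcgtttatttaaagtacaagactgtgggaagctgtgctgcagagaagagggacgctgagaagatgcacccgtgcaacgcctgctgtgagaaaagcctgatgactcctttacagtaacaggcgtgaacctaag
Gm15551 exon 2, first 200 bases, chr3:126667464-126667663, minus strand: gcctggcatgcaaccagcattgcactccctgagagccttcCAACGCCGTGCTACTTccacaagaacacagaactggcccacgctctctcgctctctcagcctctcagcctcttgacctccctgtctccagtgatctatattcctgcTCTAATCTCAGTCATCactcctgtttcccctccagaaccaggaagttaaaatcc

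RefSeq (GRCm38.p6) places the start of Gm15551 101 bases inside the GENCODE start, so the 250 bases before the RefSeq start cover both. This window is shown with those before the RefSeq starts of Camk2d and Camk2b, because expression of Camk2d and Camk2b differed between the tissues in opposite directions. The windows of Camk2d and Camk2b lie inside the genes as GENCODE annotates them. There Camk2d starts at base 126596302 and Camk2b, on the minus strand, at base 6066362. Capitals mark the GC motif, GGGCGG, and the TATA motif, TATAA, read on either strand.
Gm15551, chr3:126668944-126669193, minus strand: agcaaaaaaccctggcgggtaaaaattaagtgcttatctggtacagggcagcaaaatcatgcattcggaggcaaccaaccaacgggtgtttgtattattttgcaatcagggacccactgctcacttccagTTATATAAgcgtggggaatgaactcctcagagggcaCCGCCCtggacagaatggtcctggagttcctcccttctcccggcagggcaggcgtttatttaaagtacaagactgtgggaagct
Camk2d, chr3:126596701-126596950, plus strand: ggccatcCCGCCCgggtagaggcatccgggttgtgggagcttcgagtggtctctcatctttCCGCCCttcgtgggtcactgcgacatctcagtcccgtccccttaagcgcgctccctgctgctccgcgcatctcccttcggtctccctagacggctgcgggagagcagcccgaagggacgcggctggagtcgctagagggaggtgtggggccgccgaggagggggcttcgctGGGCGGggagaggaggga
Camk2b, chr11:6065749-6065998, minus strand: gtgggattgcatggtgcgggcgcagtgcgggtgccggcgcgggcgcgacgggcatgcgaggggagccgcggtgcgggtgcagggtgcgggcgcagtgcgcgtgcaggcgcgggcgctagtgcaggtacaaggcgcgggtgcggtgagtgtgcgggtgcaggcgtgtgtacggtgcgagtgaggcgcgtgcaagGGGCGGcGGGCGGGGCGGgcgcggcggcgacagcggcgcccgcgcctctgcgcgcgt
The Gm15551 window had a GC content of 49.6%, compared with 68.4% in that of Camk2d, 78.4% in that of Camk2b and a median of 52.4% over all 32851 windows. It held 2 matches to the TATA motif, which overlap each other on opposite strands, and 1 to the GC motif. The sense match began 16 bases before the GENCODE start. The windows of Camk2d and Camk2b held 3 matches each to the GC motif, those of Camk2b partly overlapping, and 0 to the TATA motif, and none of the 3 windows held the motif CCAAT on either strand. The TATA motif occurred on either strand in 22.8% of all windows, the GC motif in 32.7% and the last one in 33.8%. These are matches of letters only.

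Markers of the labelled tissues were checked before the members were compared. The summed level of 4 brown adipocyte markers, among them the uncoupling protein gene Ucp1, reached 5798 to 10949 CPM in iBAT, as against 11.1 to 194 CPM in iWAT and no more than 5.53 CPM in eWAT. The summed level of 3 mesothelial markers was 24.2 to 101 CPM in eWAT and at most 2.27 CPM in the other tissues. Several libraries stood apart. In iWAT ko 1 the 12 skeletal muscle markers summed to 4265 CPM, against at most 88.9 CPM in any other library. In eWAT ko 3 the epididymis markers summed to 4819 CPM, from 3 of 6 genes with more than 3 counts, against at most 16.6 CPM elsewhere, and its adipocyte markers to 10836 CPM, against 16626 to 24927 CPM in the other eWAT libraries. The smooth muscle markers of eWAT ko 2 summed to 997 CPM, against 232 to 413 CPM. In iWAT wt 3 and iWAT ko 2 the lymphocyte markers summed to 1332 and 601 CPM and the adipocyte markers to 8316 and 12136 CPM, compared with 21136 to 23948 CPM of adipocyte markers in the other iWAT libraries. iWAT ko 1, eWAT ko 3, iWAT wt 3, iWAT ko 2 and iBAT wt 3 were left out together in an alternative fit, called the fit without 5 libraries below. iBAT wt 3 hardly stood apart in muscle markers (88.9 CPM, next 83.9 CPM) but was the highest iBAT library in Camk2d and the lowest in Camk2b, so leaving it out moves these genes by construction, and a further fit kept it and left out the other 4. In both fits iWAT ko 3 is the single iWAT knockout library, set against 2 wild type libraries, so a genotype value in iWAT takes its spread from the other groups and assumes that this library varies as they do. In bulk tissue, fewer cells of a type and less RNA per cell cannot be told apart.

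Gm15551 was present in all 9 wild type libraries and close to absent from the knockout. In iBAT the wild type mice had 68, 42 and 40 counts and all 3 knockout mice had 0. In iWAT the counts were 316, 177 and 59 in wild type and 1, 1 and 0 in knockout. In eWAT they were 181, 198 and 237 in wild type and 0, 4 and 0 in knockout. The genotypes did not overlap in any tissue, as was the case for 4.94% of all genes tested in iBAT, 4.92% in iWAT and 5.25% in eWAT. Against a floor of 3 counts in the knockout library with the highest floor, the mean wild type level was at least 13.5-fold higher in iBAT. In iWAT, 552 pooled wild type counts stood against 2 knockout counts, a depth-scaled ratio of 234 (95% exact counting interval 64.6 to 1940), and in eWAT 616 against 4, a ratio of 207 (80.3 to 761). These intervals cover counting error only.

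Across tissues the fitted log2 fold change was -7.76 (SE 0.53, edgeR quasi-likelihood test, adjusted p = 9.08e-07), with every knockout library below every wild type library of its tissue. In edgeR, Gm15551 was the 1 gene of 18728, or 0.00534%, that passed the adjusted threshold of 0.05 in this comparison. DESeq2 called 4 genes there and limma voom 2. Within eWAT it also passed alone in edgeR (log2 fold change -7.67, SE 0.92, adjusted p = 0.0318, 0.00534% of genes called), where DESeq2 called 13 genes and limma voom 3. Within iWAT the edgeR adjusted p was 0.0551 and within iBAT 0.191, and edgeR called 0% of genes in either tissue. The unadjusted edgeR p-values there were 2.94e-06 and 1.02e-05. DESeq2 called Gm15551 in both (adjusted p = 4.34e-07 and 1.41e-05), among 4 genes called in iWAT and 13 in iBAT. Within eWAT the adjusted p rose to between 0.0697 and 0.546 in 18 of the 24 fits that left out 1 library or 1 mouse, to 0.0617 without the 5 libraries (0.0189 with iBAT wt 3 kept), to 0.0794 with the replicate number as a block and to 0.521 when only the 6 eWAT libraries were fitted.

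Among wild type tissues, Gm15551 had its lowest mean level in iBAT and its highest in eWAT. The iBAT libraries held 4.21, 2.72 and 2.59 CPM (mean 3.17 ± 0.90, SD, n = 3), the iWAT libraries 10.3, 6.12 and 1.95 CPM (mean 6.11 ± 4.16) and the eWAT libraries 7.96, 9.61 and 11.7 CPM (mean 9.76 ± 1.88). All 3 eWAT libraries were above all 3 iBAT libraries, and the iWAT libraries overlapped both. The lowest iWAT value came from iWAT wt 3, the library with the most lymphocyte and the fewest adipocyte markers, whose part in this value was not tested. No contrast passed the threshold in the model of 1 mean per group, fitted to all 18 libraries: iBAT against eWAT gave a log2 fold change of -1.62 (95% interval -3.05 to -0.19, adjusted p = 0.0741), iBAT against iWAT -0.94 (-2.35 to 0.46, adjusted p = 0.281) and iWAT against eWAT -0.67 (-2.06 to 0.71, adjusted p = 0.698). The share of genes called in these wild type contrasts was 35.3%, 35.3% and 1.56%. The tissue plus genotype model, in which the knockout libraries at 0 to 4 counts also enter the tissue estimates, called iBAT against eWAT (-1.69, 95% interval -2.85 to -0.54, adjusted p = 0.0150). This contrast also passed when only the 9 wild type libraries were fitted (-1.62, adjusted p = 0.0390), with the mouse as a block in the same libraries (-1.73, adjusted p = 0.0411), by DESeq2 (-1.60, adjusted p = 0.0224) and by limma voom (-1.77, adjusted p = 6.82e-05). Voom also called iBAT against iWAT (-1.30, adjusted p = 0.00282), as did the fit that left out 4 libraries, iWAT wt 3 among them, and kept iBAT wt 3 (-1.37, adjusted p = 0.0300).

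**Figure D1:**
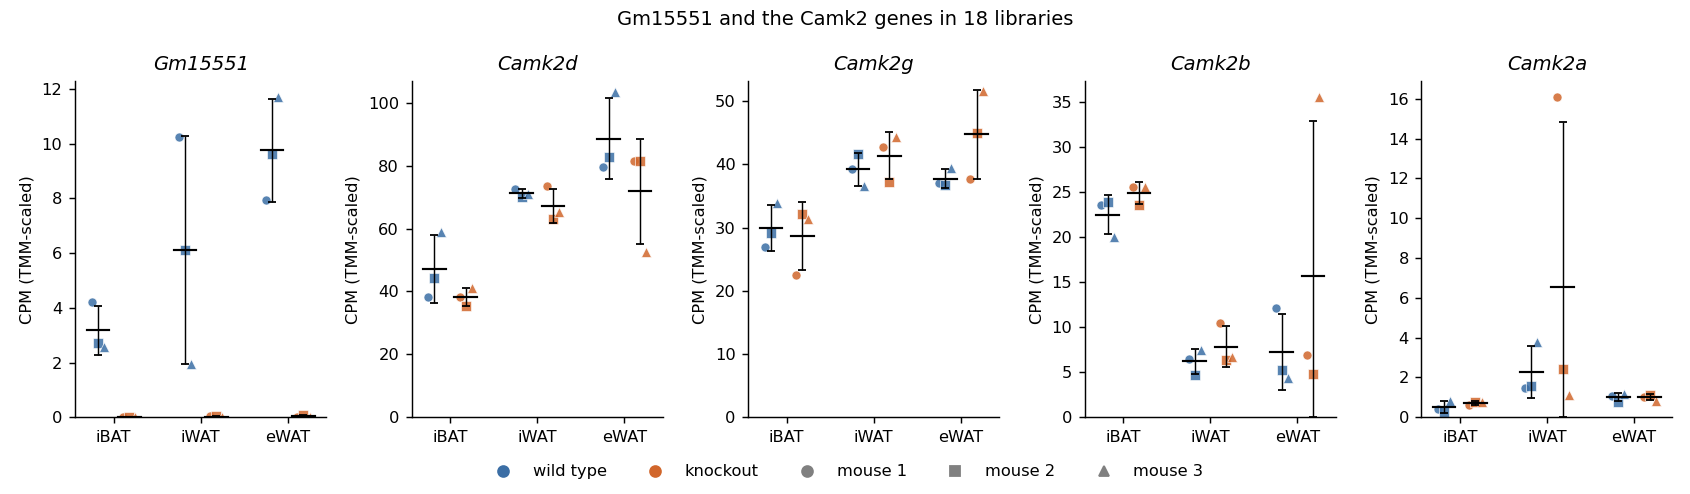
Expression of Gm15551 and the 4 Camk2 genes in CPM (vertical axes from 0, scaled per gene) in every library, by tissue; colours give the genotype, symbols the mouse number within it, horizontal lines the mean and bars the SD of 3 libraries, drawn no lower than 0. Gm15551 is near 0 in all knockout libraries, Camk2b stands at 20.0 to 25.6 CPM in iBAT, and single libraries carry the mean of Camk2a in iWAT knockout (16.1 CPM) and of Camk2b in eWAT knockout (35.6 CPM).

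Camk2d, the host gene and the member with the highest CPM, was lower in iBAT than in either white tissue. In iBAT it measured 38.3, 44.2 and 59.1 CPM in wild type and 38.2, 35.5 and 41.1 CPM in knockout mice 1 to 3. In iWAT the corresponding values were 72.7, 70.0 and 71.1 CPM and 73.4, 63.1 and 65.2 CPM, and in eWAT 79.5, 82.8 and 104 CPM and 81.5, 81.4 and 52.7 CPM. All 6 iBAT libraries lay below all 6 iWAT libraries, whereas eWAT ko 3, the library with epididymis markers, fell within the iBAT range. Over both genotypes iBAT averaged 42.7 ± 8.53 CPM, iWAT 69.2 ± 4.20 CPM and eWAT 80.3 ± 16.2 CPM (SD, n = 6 libraries each). The log2 fold change was -0.70 for iBAT against iWAT (SE 0.12, adjusted p = 1.41e-04) and -0.91 for iBAT against eWAT (SE 0.12, adjusted p = 9.21e-06), compared with a median over all genes of -0.14 and -0.17. iWAT and eWAT were neighbours that did not differ beyond their spread (-0.20, 95% interval -0.46 to 0.05, adjusted p = 0.309).

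Camk2g, the gamma form (ENSMUSG00000021820.18, chr14:20734875-20794088), followed the same order between brown and white tissue. The iBAT libraries ranged from 22.5 to 33.9 CPM (median 30.2), those of iWAT from 36.6 to 44.3 CPM (median 40.5) and those of eWAT from 36.7 to 51.6 CPM (median 38.5). The iBAT libraries overlapped neither white tissue. The log2 fold changes were -0.46 against iWAT (SE 0.11, adjusted p = 0.00163) and -0.49 against eWAT (SE 0.11, adjusted p = 9.49e-04). Among the wild type means of the same libraries the differences were -0.39 (adjusted p = 0.0570) and -0.33 (adjusted p = 0.1004), without a call. Between the white tissues the difference was -0.03 (95% interval -0.25 to 0.19, adjusted p = 0.890), and its sign turned in several alternatives.

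Camk2b, the beta form (ENSMUSG00000057897.14, chr11:5969644-6066362), went the other way and was highest in iBAT. The 6 iBAT libraries held 20.0 to 25.6 CPM (median 23.7), a narrow range, and the 6 iWAT libraries 4.70 to 10.5 CPM (median 6.57). In eWAT the wild type libraries measured 12.1, 5.24 and 4.40 CPM and the knockout libraries 6.91, 4.76 and 35.6 CPM. The last value, 718 counts in eWAT ko 3, exceeded every iBAT library and came from the library with the epididymis markers, whose part in it was not tested, and eWAT wt 1, the next in Camk2b, was also the next in these markers (16.6 CPM). The log2 fold change was 1.77 for iBAT against iWAT (SE 0.41, adjusted p = 0.00156) and 1.13 for iBAT against eWAT (SE 0.40, adjusted p = 0.0256). Without the 5 libraries these were 2.04 (adjusted p = 1.27e-04) and 1.87 (adjusted p = 3.14e-05), and with iBAT wt 3 kept 1.99 (adjusted p = 6.67e-05) and 1.82 (adjusted p = 1.36e-05). The eWAT contrast lost its call in 8 of the 24 fits that left out 1 library or 1 mouse, with log2 fold changes of 0.95 to 1.22, namely without eWAT ko 1, eWAT wt 2, eWAT wt 3, or any mouse but ko 3. Without eWAT ko 3 alone it was 1.81 (adjusted p = 1.61e-05), and iBAT against iWAT was then 1.76. iWAT against eWAT gave -0.64 (95% interval -1.49 to 0.21, adjusted p = 0.339).

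Camk2a, the alpha form (ENSMUSG00000024617.16, chr18:60925618-60988152), had the lowest mean CPM of the kinase genes in each tissue. It was near the limit of detection in iBAT, with 4 to 13 counts per library. It measured 0.433, 0.259 and 0.840 CPM in wild type and 0.626, 0.751 and 0.773 CPM in knockout iBAT. In iWAT the values were 1.46, 1.59 and 3.79 CPM in wild type and 16.1, 2.44 and 1.10 CPM in knockout mice. In eWAT all 6 libraries lay between 0.776 and 1.19 CPM. The highest value, 416 counts, belonged to iWAT ko 1, the library with the highest sum of muscle markers, whose part in this value was not tested. Camk2a gave a log2 fold change of -2.72 for iBAT against iWAT (SE 0.57, adjusted p = 6.76e-04) and of 1.97 for iWAT against eWAT (SE 0.54, adjusted p = 0.0304). Without the 5 libraries the first difference was -1.41 (adjusted p = 0.00642) and the second 0.46 (adjusted p = 0.447). Without iWAT ko 1 alone the first was -1.76 (adjusted p = 7.16e-04) and the second 1.04 (adjusted p = 0.0621). The second lost its call in 12 of the 24 fits that left out 1 library or 1 mouse, with estimates of 1.04 to 2.22, namely without iWAT ko 1, iWAT wt 3, any eWAT library but eWAT wt 3, or any mouse but ko 3. With the mouse as a block it was 1.53 (adjusted p = 0.0585). iBAT against eWAT gave -0.76 (95% interval -1.92 to 0.41, adjusted p = 0.259) with all libraries and -0.95 (adjusted p = 0.0215) without the 5 libraries.

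In counts, iBAT was higher than iWAT for 1 of the 4 kinase genes and lower for 3, where 24.0% of all genes tested were called higher and 30.3% lower. Against eWAT 1 was higher and 2 lower (24.4% and 30.2% of all genes), and iWAT was higher than eWAT for 1 and lower for 0 (5.70% and 4.50%). All 4 genes separated the iBAT from the iWAT libraries without overlap, which 34.6% of all genes did. Only Camk2g of the 4 separated iBAT from eWAT (37.3% of all genes), and 0 separated iWAT from eWAT (4.62% of all genes). With calls this frequent between brown and white tissue, a called difference does not set these genes apart from the rest of the transcriptome, and the direction and size per member carry the description.

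**Figure D2:**
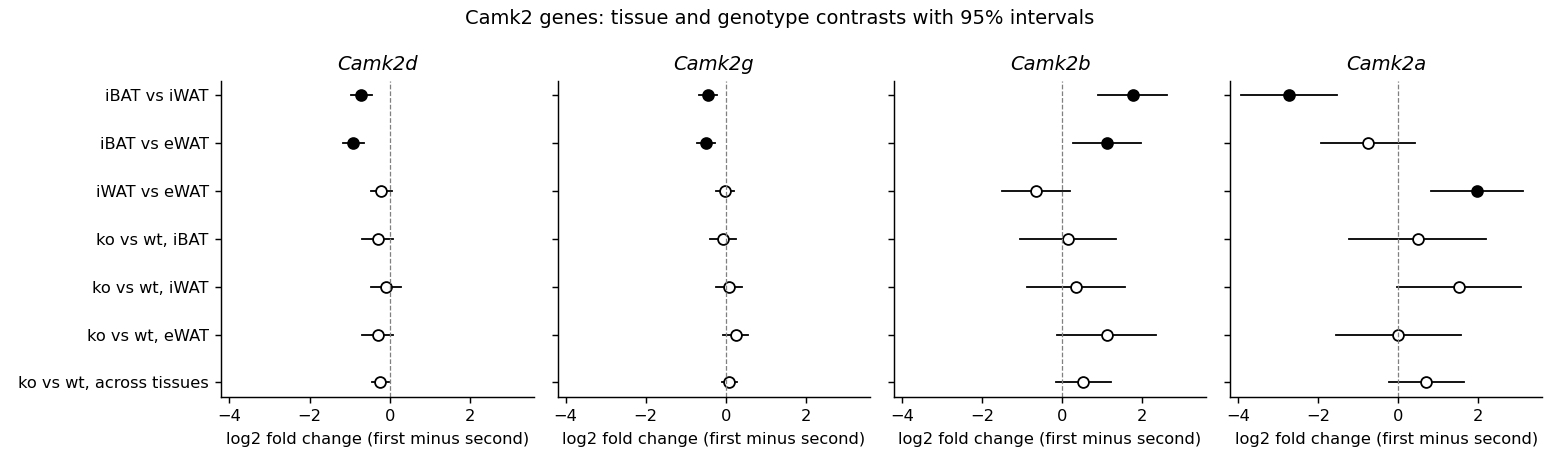
Log2 fold changes of the 4 Camk2 genes (horizontal axis, first group minus second) with 95% intervals for the 3 tissue contrasts and the genotype contrasts; filled points passed the adjusted p threshold of 0.05. Camk2d (-0.70 and -0.91) and Camk2g (-0.46 and -0.49) lie below 0 and Camk2b (1.77 and 1.13) above it in iBAT against white tissue, and no genotype contrast is filled.

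Levels of different genes were compared per kilobase of the longest annotated transcript, 5524 bp for Camk2d and 3703 bp for Camk2g. The union of their annotated exons is 22493 and 6401 bp, so the ranking of genes within a tissue depends on the length chosen. With the union, or with no length correction, the differences of the shares between tissues kept their sign. On this scale the family summed to 21.5 ± 1.96 CPM per kb in iBAT, 26.0 ± 2.39 in iWAT and 28.6 ± 2.34 in eWAT (SD, n = 6). In iBAT the level was divided over 3 genes: Camk2g held a mean of 36.7% of the sum, Camk2d 35.7% and Camk2b 27.0%, with 0.571% for Camk2a. In iWAT Camk2d held 48.4%, Camk2g 42.0%, Camk2b 6.50% and Camk2a 3.16%. In eWAT Camk2d held 51.2%, Camk2g 38.8%, Camk2b 9.34% and Camk2a 0.709%. By the longest transcript, Camk2d and Camk2g were therefore neighbours in iBAT, with ranges of 30.7% to 43.0% and 31.5% to 41.4% that overlapped.

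Shares were paired over same-numbered libraries, taken as 1 mouse, and the paired tests rest on this reading of the numbers. On it, the share of Camk2b was 20.5 percentage points higher in iBAT than in iWAT (SD 4.12, n = 6 mice) and 17.6 points higher than in eWAT (SD 8.83), in 6 of 6 mice each. The exact paired permutation test gave p = 0.03125 for both, which is the smallest that 6 pairs allow, and the value adjusted over 12 comparisons (4 genes and 3 tissue pairs) was 0.0625. The share of Camk2d was 12.6 points lower in iBAT than in iWAT (-12.6, SD 4.31, lower in 6 of 6 mice, exact permutation p = 0.03125, adjusted 0.0625) and differed by -15.4 points from that in eWAT (SD 9.58, lower in 5 of 6 mice, exact permutation p = 0.0625, adjusted 0.107). No share difference passed the adjusted threshold. In eWAT ko 3 the shares of Camk2d and Camk2b were 29.6% and 26.7%, against 52.2% to 61.1% and 3.47% to 10.7% in the other eWAT libraries. In iWAT ko 1 Camk2a held 10.6%. Without the 5 libraries the difference between medians for Camk2b was 21.8 points against iWAT and 23.0 points against eWAT.

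**Figure D3:**
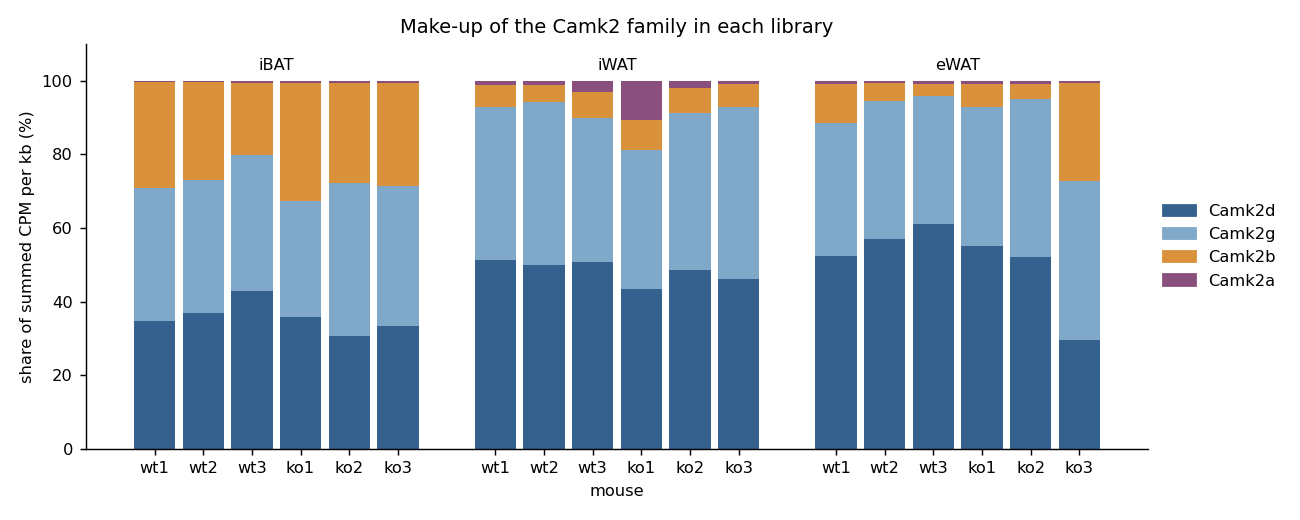
Share of each Camk2 gene in the summed CPM per kb of the family (vertical axis, %) in each library, grouped by tissue and ordered by mouse. The Camk2b band is widest in the 6 iBAT libraries (19.5% to 32.1%) and in eWAT ko 3 (26.7%), and the Camk2a band in iWAT ko 1 (10.6%).

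The question of whether loss of Gm15551 changed its host gene or the related kinases was addressed by the genotype contrasts. Camk2d differed by -0.23 on the log2 scale across tissues (95% interval -0.44 to -0.02, adjusted p = 0.9999 in edgeR). The across-tissue fit counts the libraries of a mouse as separate, so its interval can be too narrow. Within tissues the estimates were -0.30 in iBAT (95% interval -0.68 to 0.08), -0.08 in iWAT (-0.46 to 0.30) and -0.30 in eWAT (-0.68 to 0.08). The lowest eWAT knockout value (52.7 CPM) came from the library with epididymis markers and the highest iBAT wild type value (59.1 CPM) from iBAT wt 3. Without the 5 libraries the estimates were -0.11 in iBAT, -0.12 in eWAT and -0.12 across tissues, and with iBAT wt 3 kept they were -0.30, -0.12 and -0.20. In iWAT both fits gave -0.14, a value that rests on 1 knockout library. Leaving out 1 library or mouse gave Camk2d estimates of -0.29 to -0.12 across tissues and -0.43 to -0.11 in iBAT. In iWAT such fits gave -0.15 to -0.04 and in eWAT -0.41 to -0.12, without a call. The wild type and knockout libraries overlapped in every tissue.

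Camk2g differed by 0.09 across tissues (95% interval -0.09 to 0.27), Camk2b by 0.53 (-0.16 to 1.22) and Camk2a by 0.70 (-0.24 to 1.64), each with an adjusted p of 0.9999 in edgeR. The Camk2b estimate was -0.04 without the 5 libraries, and that of Camk2a 0.27. Of the 4 kinase genes, 0 were called in any genotype contrast by edgeR, DESeq2 or limma voom. At an unadjusted p under 0.05, each tool counted 1 of the 4 across tissues, Camk2d in edgeR, where 2.19% of all genes tested had such a p in edgeR, 2.54% in DESeq2 and 6.16% in limma voom. DESeq2 set no adjusted p for Camk2b there. Within tissues DESeq2 counted 1 gene in iWAT and 1 in eWAT at that level, and edgeR and voom counted 0, beside 1.23% to 5.78% of all genes over the 3 tools and tissues. In no tissue did the wild type and knockout libraries separate in the CPM of a kinase gene. The interaction of genotype with tissue was called for 0 of the 5 members and 0% of all genes, and the smallest of the members' unadjusted p-values was 0.351 (Camk2a). The shares in the family, tested by exact permutation of 3 against 3, gave p-values of 0.1 to 0.9, where 0.1 is the smallest possible, and at least 0.48 when adjusted over the 12 comparisons. The share of Camk2d was lower in knockout by -4.86 points in iBAT, -4.66 in iWAT and -11.2 in eWAT (exact permutation p = 0.2, 0.1 and 0.2). In iWAT its shares did not overlap, at 43.4% to 48.6% in knockout and 49.9% to 51.4% in wild type libraries, and the difference was -3.36 points without iWAT ko 1. Without eWAT ko 3 the last difference was -3.14 points, and without iBAT wt 3 the first was -2.46 points. The share of Camk2g in eWAT was higher in knockout by 5.15 points (exact permutation p = 0.1), and by 4.23 points without eWAT ko 3.

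Genes near Gm15551 were described next. Of 44 annotated genes that start within 1000000 bp, 13 passed the filter on low counts, among them Camk2d. Of these 13, 8 had a lower and 5 a higher estimate in knockout, and edgeR called 0, with 1 (Camk2d) at an unadjusted p under 0.05. Leaving Camk2d aside, all 3 tools called 0 of the remaining 12 across tissues and within each tissue. At an unadjusted p under 0.05, edgeR and DESeq2 counted 0 of the 12 in each of these contrasts, and limma voom 2 across tissues, 3 in iBAT, 0 in iWAT and 2 in eWAT, where its shares over all genes were 6.16%, 4.81%, 3.73% and 5.78%. On the side of the Camk2d start lay the coding genes Arsj, a sulfatase gene (-0.27, SE 0.48, at most 2.12 CPM), and Ugt8a, which encodes a galactosyltransferase of myelin lipid synthesis (0.23, SE 0.57, at most 8.35 CPM). On the other side, beyond the end of Camk2d, lay Ank2, the gene of an ankyrin adaptor (0.04, SE 0.21, 9.16 to 32.3 CPM), Larp7, which encodes an RNA-binding protein of the 7SK particle (-0.09, SE 0.09, 16.2 to 26.9 CPM), and Zgrf1, a helicase gene (0.17, SE 0.24, 0.867 to 4.16 CPM). Of 7 further annotated transcripts inside Camk2d, all in the category to be experimentally examined, 3 passed the filter: Gm43006 (-0.37, SE 0.32), Gm42515 (-0.83, SE 0.44) and Gm42514 (-0.01, SE 0.47), each at most 1.23 CPM. The other tested neighbours were Gm43322 (0.24), Gm42974 (-0.03), Gm42971 (0.21) and Gm42970 (-0.04), at most 2.62 CPM.

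The kinase acts between calcium release, calmodulin and nuclear targets, and 44 genes of these steps were listed, of which 40 were tested. In iBAT against iWAT 9 were higher and 11 lower, in iBAT against eWAT 8 and 14, and in iWAT against eWAT 0 and 5. Over all genes the shares called higher and lower were 24.0% and 30.3%, 24.4% and 30.2%, and 5.70% and 4.50%. The median log2 fold change of the 40 was -0.17, -0.13 and 0.06, beside -0.14, -0.17 and 0.01 over all genes. Without the 5 libraries, 39 genes were tested, and the calls were 11 higher and 6 lower, 10 and 14, and 0 and 4, beside 20.4% and 23.6%, 25.1% and 30.0%, and 5.56% and 4.39% of all genes in that fit. Across tissues 0 of the 40 were called between genotypes by edgeR, DESeq2 or limma voom. In edgeR 2 genes had an unadjusted p under 0.05: Camkk1, a kinase that activates other CaM kinases (0.74, SE 0.23, adjusted p = 0.9999), and Rcan2, a calcineurin regulator (0.49, SE 0.21, adjusted p = 0.9999). DESeq2 counted 2 and limma voom 4 at that level. Over all genes tested the shares at that level were 2.19% in edgeR, 2.54% in DESeq2 and 6.16% in limma voom, and nothing particular to the list is read from these counts.

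Calm2 and Calm3 encode calmodulin, which activates the kinase. Calm2 measured 114 ± 8.44 CPM in iBAT, 125 ± 16.7 in iWAT and 139 ± 35.2 in eWAT (SD, n = 6), and differed by -0.14, -0.28 and -0.14 in the 3 contrasts without a call. Calm3 was lower in iBAT than in eWAT (-0.35, SE 0.12, adjusted p = 0.0209), where it measured 122 ± 7.91 and 155 ± 25.3 CPM.

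The endogenous inhibitors of the kinase, Camk2n1 and Camk2n2, had their highest level in eWAT. For Camk2n1 the 6 iBAT libraries spanned 9.46 to 19.0 CPM (median 14.6), those of iWAT 12.1 to 28.1 CPM (median 17.4) and those of eWAT 20.5 to 45.8 CPM (median 28.9). It was lower in iBAT (-1.10, SE 0.23, adjusted p = 6.40e-04) and in iWAT (-0.75, SE 0.23, adjusted p = 0.0456) than in eWAT, the latter at -0.72 with an adjusted p of 0.122 without the 5 libraries. Camk2n2 was lower in iBAT than in eWAT (-0.49, SE 0.20, adjusted p = 0.0494, and -0.45 with adjusted p = 0.0514 without the 5 libraries), at 3.40 ± 0.66 against 4.78 ± 0.95 CPM. Neither differed between iBAT and iWAT beyond the spread (-0.35 and -0.05, adjusted p = 0.201 and 0.848).

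Calcium store genes were among those with the largest called differences of the list, in both directions. Of the 10 tested, 3 were higher and 3 lower in iBAT than in iWAT, beside 24.0% and 30.3% of all genes. Against eWAT 3 were higher and 1 lower, beside 24.4% and 30.2% of all genes. Nothing particular to the group is read from these counts. Itpr2 and Itpr1, which encode IP3 receptors that release calcium from the endoplasmic reticulum, were higher in iBAT than in both white tissues. For Itpr2 the iBAT libraries spanned 160 to 219 CPM, those of iWAT 21.7 to 38.5 CPM and those of eWAT 28.7 to 49.4 CPM, so that no iBAT library came near a white one. Its log2 fold changes were 2.65 (SE 0.17, adjusted p = 4.47e-09) and 2.31 (SE 0.17, adjusted p = 8.46e-09). Itpr1 measured 119 ± 13.4, 45.1 ± 2.55 and 39.5 ± 5.92 CPM, with log2 fold changes of 1.40 (adjusted p = 9.02e-09) and 1.59 (adjusted p = 1.40e-09). Itpr3, the other IP3 receptor gene, outside the rule for named genes and added after its values were seen, went the other way against iWAT (-1.35, SE 0.35, adjusted p = 0.00382; -0.55 with adjusted p = 0.149 without the 5 libraries) and gave -0.66 against eWAT (adjusted p = 0.116). Ryr1, the release channel of skeletal muscle, fell below its iWAT level in iBAT (log2 fold change -5.74, SE 1.51, adjusted p = 0.0041), where iWAT ko 1 held 134 CPM and the median of the 6 libraries was 0.941 CPM; without the 5 libraries the difference was -2.19 (adjusted p = 5.30e-04). Ryr3 was lower in iBAT than in eWAT (-4.32, SE 1.57, adjusted p = 0.0279), with a median of 0.129 CPM and a highest value of 10.3 CPM in eWAT, and it did not pass the filter without the 5 libraries.

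Among the other CaM kinases, which respond to calmodulin without forming large holoenzymes, Camk1d was lower in iBAT (1.45 ± 0.35 CPM) than in iWAT (9.93 ± 8.08 CPM; -2.77, SE 0.46, adjusted p = 9.36e-05) and eWAT (5.13 ± 1.66 CPM; -1.81, SE 0.45, adjusted p = 0.00269). Without the 5 libraries these differences were -1.33 and -1.81, both called. Cacna1c, the pore subunit of an L-type calcium channel, was lower in iWAT than in eWAT (8.65 ± 1.18 against 14.9 ± 3.23 CPM; -0.79, SE 0.17, adjusted p = 0.00828). In the calcineurin group, the phosphatase arm of calcium signalling, 3 of 6 genes were higher and 1 lower in iBAT than in iWAT, and 3 were higher and 2 lower than in eWAT. Of the 8 class IIa deacetylase and MEF2 genes, nuclear targets of CaM kinases, 2 were higher and 3 lower against iWAT, and 1 and 2 against eWAT. The shares over all genes in these contrasts were 24.0% and 24.4% higher and 30.3% and 30.2% lower, and nothing particular to either group is read from its counts.

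**Figure D4:**
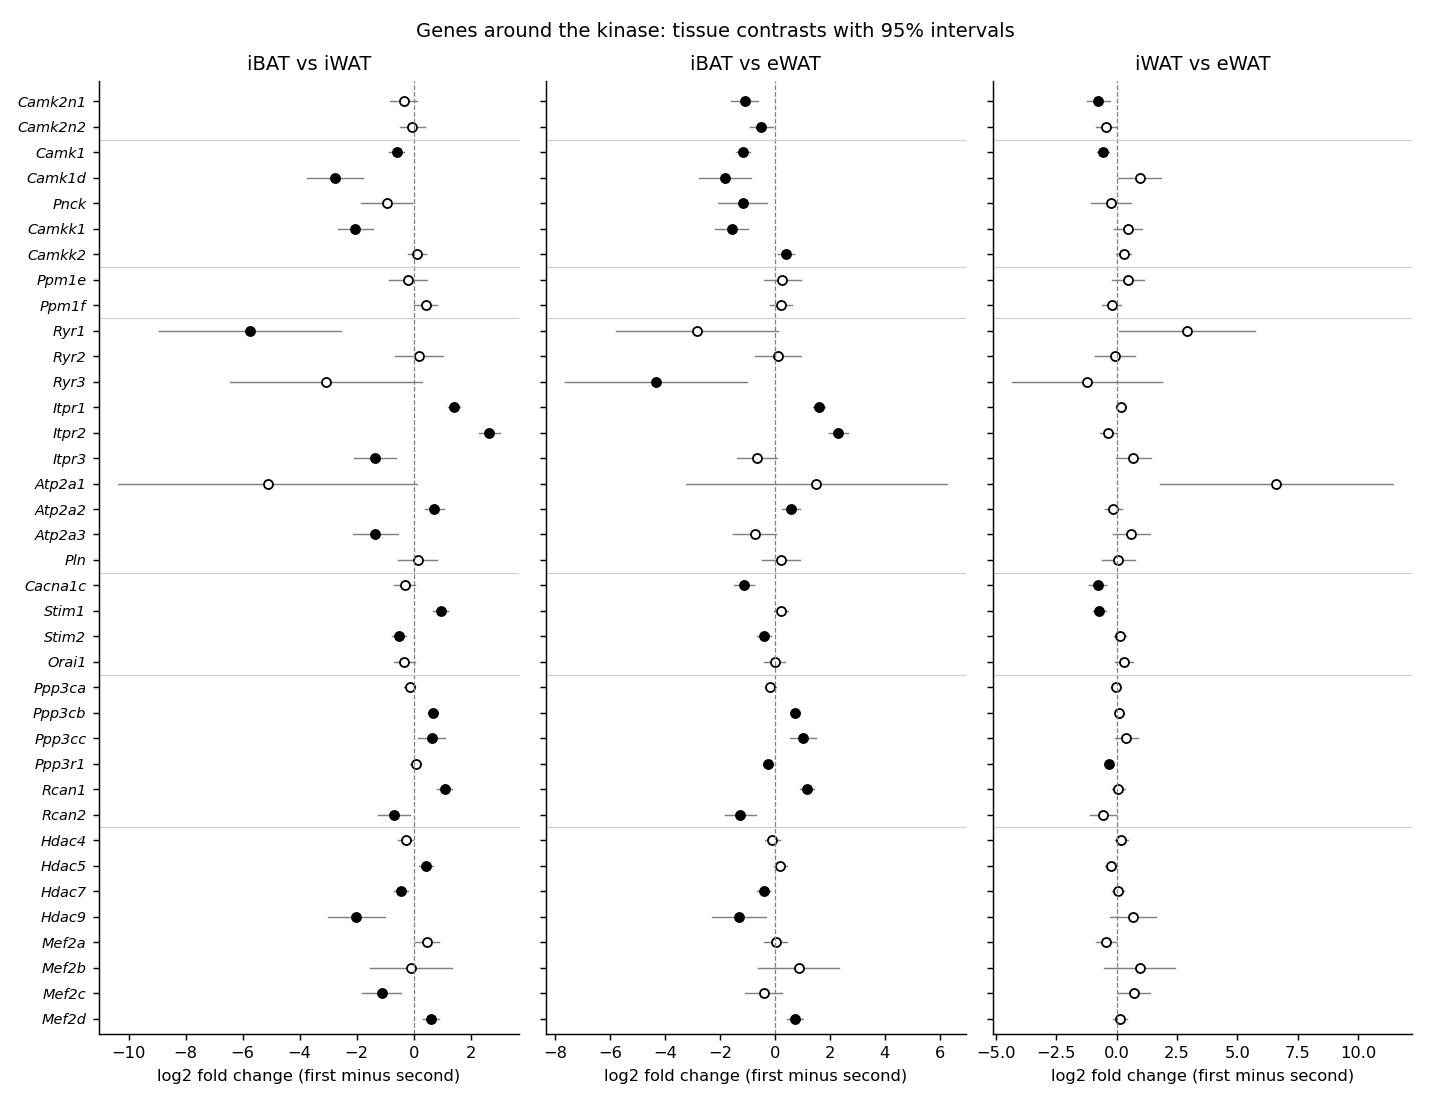
Log2 fold changes (horizontal axes, first tissue minus second, scaled per panel) with 95% intervals for the tested genes around the kinase other than those of calmodulin, grouped by role between the grey lines; filled points passed the adjusted p threshold of 0.05. Itpr1 and Itpr2 lie farthest above 0 with narrow intervals in iBAT against both white tissues, and Ryr1 and Ryr3 have wide intervals.

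The genes whose level followed each member most closely across libraries were listed as a description, by Pearson's correlation of log2 CPM. The points share libraries and, for the kinase genes, 3 tissues per mouse. For Gm15551 over the 9 wild type libraries the first 5 were Tmem182, Fbxl4, Bmpr1a, Mpp7 and Brpf3 (r of 0.976 to 0.986), and Tmem182 measured 28.3, 56.9 and 77.4 CPM in iBAT, iWAT and eWAT. The correlation of Gm15551 with Camk2d over these libraries was 0.62. For Camk2d over 18 libraries they were Rasa2, Cks1b, Fgf2, Cyp4f16 and Fam102b (0.942 to 0.956), and for Camk2g Lhx6, Tmed3, Fam83d, Trp63 and Yeats2 (0.909 to 0.959). For Camk2b they were Msi2, Aig1, Kif16b and Slco4a1 among the first 5 (0.941 to 0.961), and Aig1, like Camk2b, had its highest eWAT value (28.5 CPM) far above its median there (6.91 CPM). For Camk2a they were Cacna1s, Mybpc1, Ryr1, Prkab2 and Neb (0.851 to 0.907), of which Cacna1s, Mybpc1, Ryr1 and Neb are known as genes of the muscle contraction machinery. Camk2d and Camk2b ran in opposite directions (r = -0.85, n = 18 libraries).

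**Figure D5:**
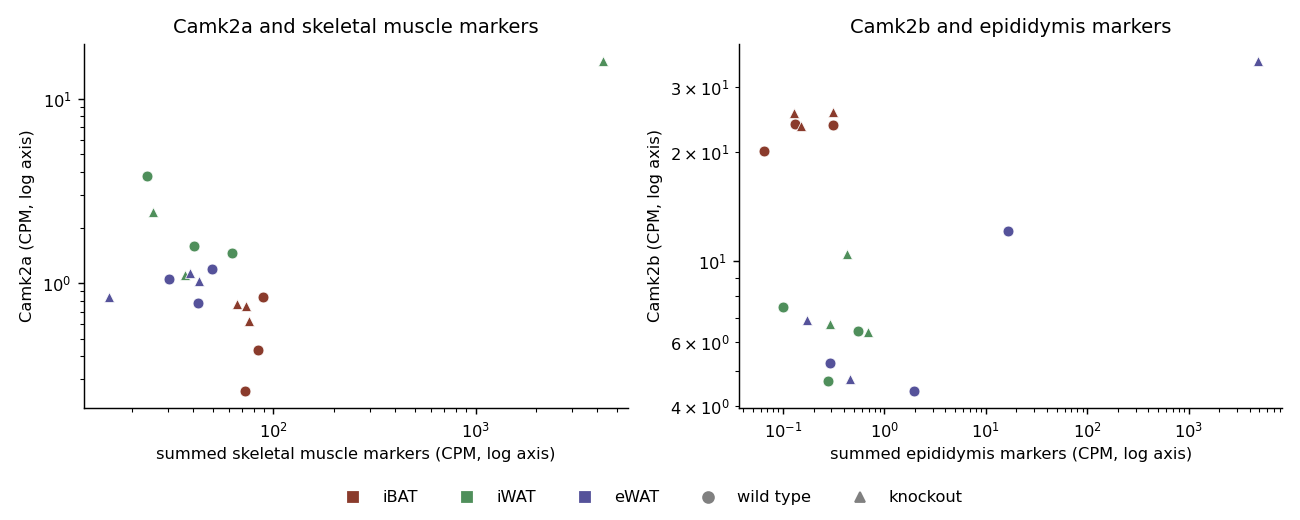
Camk2a against the summed skeletal muscle markers and Camk2b against the summed epididymis markers in all 18 libraries (CPM, log axes); colours give the tissue and symbols the genotype. One iWAT knockout library (Camk2a 16.1 CPM, muscle markers 4265 CPM) and one eWAT knockout library (Camk2b 35.6 CPM, epididymis markers 4819 CPM) lie far to the right, whereas the iBAT libraries combine 20.0 to 25.6 CPM of Camk2b with at most 0.313 CPM of epididymis markers.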

How the data were processed

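Polyadenylated RNA of 18 adipose libraries (3 tissues, 2 genotypes, 3 mice each) was quantified by the authors. They filtered reads with cutadapt, estimated transcript abundance with Salmon against GENCODE M22 (GRCm38) or its combination with RNAcentral, and deposited unnormalised estimated counts, rounded to integers, for each gene. Which reference was used and the strand setting are not given in the sources used here. The knockout libraries, with Camk2d at 35.5 to 81.5 CPM, had at most 4 counts assigned to Gm15551. Salmon divides reads shared between the related Camk2 genes by a model. Bases of Gm15551 were taken from GENCODE M21 and promoter windows from RefSeq (printed for 3 of 5 members, not for Camk2g and Camk2a). The position the study states for the deletion was not used, because it does not fall in the annotated gene.

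Groups and replicate numbers came from the labels. Same-numbered libraries of a genotype were taken as 1 mouse, a reading of the number in the title. Over 18 such pairs the deviations from the group means correlated at -0.17 to 0.33 (median 0.057), which does not settle whether they share a mouse. Same-numbered wild type and knockout libraries correlated at -0.47 to 0.55 over 9 pairs, so numbers were not taken to pair the genotypes. Counts were filtered with filterByExpr by group, which left 18728 of 54347 genes, scaled by TMM and fitted in edgeR 4.0.16 (R 4.3.3, quasi-likelihood tests), with a tissue plus genotype model and a model of 1 mean per group. Calls were made at a Benjamini-Hochberg adjusted p under 0.05 over the whole filtered table. SE is that of the log2 fold change. A count of 0 allows up to 3 counts. Depth was 14997901 to 34389586 counts per library. Family shares used CPM per kb and exact sign-flip tests over mice, two-sided. Alternatives included DESeq2 1.42.0 and limma 3.58.1 voom with quality weights, other filters and scalings, blocks, single genotypes or tissues, and leaving out libraries or mice. The scripts were tested on simulated data. The members, the gene lists, the rule for naming genes and the 5 libraries left out together were chosen with earlier results of these data known. The rule named all members, Calm2, Calm3, Camk2n1, Camk2n2, the 2 called pathway genes with the largest change in each direction and tissue contrast, all tested neighbours and the 5 genes most like each member. Some genes that the rule named are not reported here.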

Additional observations from a re-analysis of the deposited data

Results flagged for a closer look

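Of the 12 sets of 6 libraries formed by the 4 Camk2 genes and 3 tissues, 4 held a library that lay far from the others, by a gap to its neighbour that exceeded Dixon's 95% critical share of the whole range. Chance gives about 1 such set in 20. Camk2a stood at 16.1 CPM in iWAT ko 1, against 1.10 to 3.79 CPM in the other 5 iWAT libraries, and this library had 4265 CPM of muscle markers. Camk2b stood at 35.6 CPM in eWAT ko 3, against 4.40 to 12.1 CPM, and this library had 4819 CPM of epididymis markers. In iBAT wt 3, Camk2d was the highest of the iBAT libraries at 59.1 CPM, against 35.5 to 44.2 CPM, and Camk2b the lowest at 20.0 CPM, against 23.5 to 25.6 CPM. In that library the muscle marker sum was 88.9 CPM, against 66.2 to 83.9 CPM, and the brown adipocyte sum 6319 CPM, within the range of the others. The part of these markers in the 4 values was not tested.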

How the results depend on the processing

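The alternatives for the list of calcium signalling genes, and the fit that left out 4 of the 5 libraries and kept iBAT wt 3, were chosen after seeing the data, and the 5 libraries from earlier results of them. The calls of Gm15551 across tissues and of Camk2d between brown and white tissue were retained in every alternative, and no alternative called a Camk2 gene between genotypes.

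For Gm15551 between genotypes, leaving out 1 library or mouse gave log2 fold changes of -8.01 to -6.98 in iWAT and -10.73 to -7.24 in eWAT. In iWAT the call was made with no filter (-7.58) and by DESeq2 (-7.85), and in iBAT by DESeq2 (-7.89), and without the 4 libraries in both (-10.48, with 1 knockout library at 0 counts and the spread taken from the other groups, and -9.11). In eWAT it was lost with the replicate block (-7.85), with the 6 eWAT libraries alone (-7.66) and without the 5 libraries (-7.23). Between wild type iBAT and eWAT the call was made by DESeq2 (-1.60), voom (-1.77), in wild type libraries alone (-1.62), there with the mouse as a replicate block (-1.73) and without the 5 (-1.49) or 4 libraries (-1.62). Leaving out 1 library or mouse gave -2.0 to -1.34 for this contrast, with the call made in 3 of 24 fits. Voom (-1.30) and the fit without the 4 libraries (-1.37) also called iBAT against iWAT.

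Between iWAT and eWAT, Camk2g changed sign by voom (0.040), in wild type libraries (0.058), without the 5 (0.10) or 4 libraries (0.095) and within -0.076 to 0.033 on leaving out 1 library or mouse, and Camk2b by voom (0.28) and within -0.86 to 0.071. Camk2a lost its call there by voom (1.33), with the mouse as a replicate block (1.53), in wild type (1.19) or knockout (2.69) libraries alone and without the 5 (0.46) or 4 libraries (0.43), with 1.04 to 2.22 on leaving out 1 library or mouse. Camk2b in iBAT against eWAT gave 0.95 to 1.81. Camk2g in iBAT against eWAT lost its call in wild type libraries (-0.33). Knockout libraries alone gave no call for Camk2g (-0.52) or Camk2b (1.68) against iWAT, or for Camk2b against eWAT (0.67). Camk2a in iBAT against eWAT was called without the 5 (-0.95) or 4 libraries (-0.78). The mouse block changed no other tissue call of the Camk2 genes.

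Uncalled genotype estimates changed sign for Camk2g in iBAT (voom 0.040, without the 5 libraries 0.033), Camk2b across tissues (-0.038) without the 5 libraries, and Camk2b in eWAT (-0.33) and Camk2a in iWAT (-0.47, from 1 knockout library) without the 5 or 4 libraries. On leaving out 1 library or mouse they spanned -0.16 to 0.079 for Camk2g in iBAT, -0.32 to 1.69 for Camk2b in eWAT, and -0.37 to 2.10 and -0.16 to 0.13 for Camk2a in iWAT and eWAT. The number of listed calcium signalling genes called in iWAT against eWAT was 3 with no filter (3.88% of all genes called) and 2 to 7 on leaving out 1 library or mouse (3.83% to 10.7%). In wild type as in knockout libraries alone 13, 11 and 0 were called in the 3 contrasts, beside 37.8%, 37.7% and 1.42% of all genes in wild type and 31.9%, 33.6% and 0.703% in knockout libraries. The cause of these changes was not tested. Counts of 0 to 13 limit Gm15551 in knockout and Camk2a in iBAT libraries.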
